A study of Mus musculus with 12 samples.

Results

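Knockdown of Ctnnb1, the gene of beta-catenin, was examined in mouse collecting duct cells that had received no vasopressin agonist. The comparison took the 3 libraries labelled Ctnnb1 siRNA with vehicle and set them against the 3 libraries labelled control siRNA with vehicle, over all genes of the count table. It thus used 6 of the 12 libraries of the series. The cells were mpkCCDc11, an immortalised line of mouse kidney cortical collecting duct cells that forms polarised sheets on filters. The 3 knockdown libraries, labelled with the genotype Ctnnb1 Knockdown, came from cells transfected with an siRNA against Ctnnb1. The 3 control libraries, labelled WT, came from cells transfected with a control siRNA. The dose of these siRNAs is left unclear by the labels. Cells of both groups were transfected with DharmaFECT1 on permeable filters, cultured for 4 days, moved to medium without serum or hormones for 24 h and then given vehicle. The earlier medium held selenite, transferrin, dexamethasone, triiodothyronine, epidermal growth factor, insulin and fetal bovine serum. The other 6 libraries carried the same siRNAs but received 1 nM dDAVP, an agonist of the vasopressin V2 receptor, on the basolateral side for 24 h in place of vehicle. A single siRNA reagent is named for Ctnnb1 and a single line was used, so that effects of the reagent apart from its target cannot be told apart from effects of less beta-catenin. The labels leave unsaid whether replicates were grown as separate cultures. A p-value here reflects only how much the libraries vary, and that variation may be technical.

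Beta-catenin works at the membrane and in the nucleus. At the adherens junction it ties the tails of cadherins to alpha-catenin and through it to actin. In the cytoplasm a destruction complex built on Axin and APC marks it for degradation unless a Wnt ligand engages Frizzled and LRP receptors, and the beta-catenin that escapes enters the nucleus and acts as a coactivator on TCF and LEF factors. In the kidney this pathway drives the branching of the ureteric bud, from which the collecting duct arises.

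The knockdown libraries held 40210205 to 44102656 counted reads and the control libraries 32997720 to 48935473. Of 25208 genes in the table, 16508 passed the filter on low counts and held 99.97% of the reads. Small structural RNAs such as Rn7sk, Rn7s1 and Rmrp took 2.18% of reads in knockdown libraries (SD 0.0936, n = 3) and 1.59% in control libraries (SD 0.319, n = 3), with no overlap, and the part of this difference in the results was not tested. The first principal component of the 6 libraries held 25.1% of the variance and placed the knockdown libraries at 27.2, 13.3 and 9.97 and the control libraries at -4.17, -33.8 and -12.4. The labelled cell type was checked against principal cell markers. Avpr2, the V2 receptor, had 30.6, 33.2 and 34.8 CPM in knockdown libraries, against 34.3, 27.3 and 26.7 CPM in control libraries, and Gata3, Hsd11b2 and Scnn1a were likewise present. Aqp2, the vasopressin-regulated water channel, had 2, 6 and 0 reads in the knockdown libraries and 2, 0 and 0 reads in the control libraries, so that this defining marker was near 0 in both vehicle groups. Aqp3, Aqp4, Scnn1b, Kcnj1, Fxyd4 and Elf5, further principal cell markers, had at most 43 reads in any of the 6 libraries. The summed level of the 15 principal cell markers in the table was 156 to 163 CPM in knockdown libraries and 155 to 179 CPM in control libraries, and edgeR called 0 of the 12 tested, with unadjusted p under 0.05 for Tmem45b and Scnn1g, while DESeq2 called 1 lower. Fibroblast, endothelial and leukocyte markers summed to 29.2 to 34.0 CPM in knockdown libraries and 29.6 to 32.4 CPM in control libraries. Most of that sum came from Csf1r, the receptor of a macrophage growth factor, and Cd68 and Col1a1 had 49 to 140 reads in each of the 6 libraries. Pdgfra, Pdgfrb and Pecam1 had at most 27 reads, and Tek, Emcn, Ptprc and Cd79a at most 10. Markers of other kidney cells were also present. The 9 intercalated cell markers summed to 167 to 189 CPM in knockdown libraries and 143 to 178 CPM in control libraries, mainly from Car2 and Atp6v1b1, with 0 of 7 tested called by edgeR or DESeq2, 2 with an unadjusted p under 0.05, and a median log2 of 0.15. The 8 markers of other nephron cells summed to 141 to 147 CPM in knockdown libraries and 142 to 157 CPM in control libraries, mainly from Lrp2 and Podxl, with Slc12a3 at 0 reads in all 6; 0 of 4 tested were called by either tool, 1 had an unadjusted p under 0.05, and the median log2 was -0.14. Over all 16508 tested genes, 8.09% had an unadjusted p under 0.05 in edgeR, and DESeq2 called 97 higher and 80 lower. The part of other cell types in the results was not tested. In bulk RNA, fewer cells of a type and less RNA per cell cannot be told apart.

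With edgeR's quasi-likelihood test and Benjamini-Hochberg adjustment over the 16508 genes, which gives every adjusted p below unless another tool is named, 34 genes were higher (0.206% of those tested) and 37 were lower (0.224%) in knockdown cells, together 0.43%, at an adjusted p under 0.05, here written as called. DESeq2 called 97 higher and 80 lower of the same 16508 genes, and edgeR on the 6 vehicle libraries alone 150 higher and 105 lower. An unadjusted p under 0.05 was found for 1336 genes, or 8.09% of those tested. Levels are given as CPM, reads of a gene scaled to the size of its library, and fold changes as log2 of knockdown over control, so that a value of 1 is a doubling. Only Sprr1a among the called genes was at least 2-fold higher, and Rnf43, Pcdhb20 and Ctnnb1 were among those at least 2-fold lower. In all, 13 raised and 15 lowered genes changed by over 1.5-fold. Over all tested genes the median log2 fold change was -0.0029, with 5% of genes below -0.38 and 5% above 0.47. In each of the 71 called genes the 3 knockdown values lay wholly to one side of the 3 control values, as they did for 8.95% of all tested genes on the higher side and 9.26% on the lower side.

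**Figure D1:**
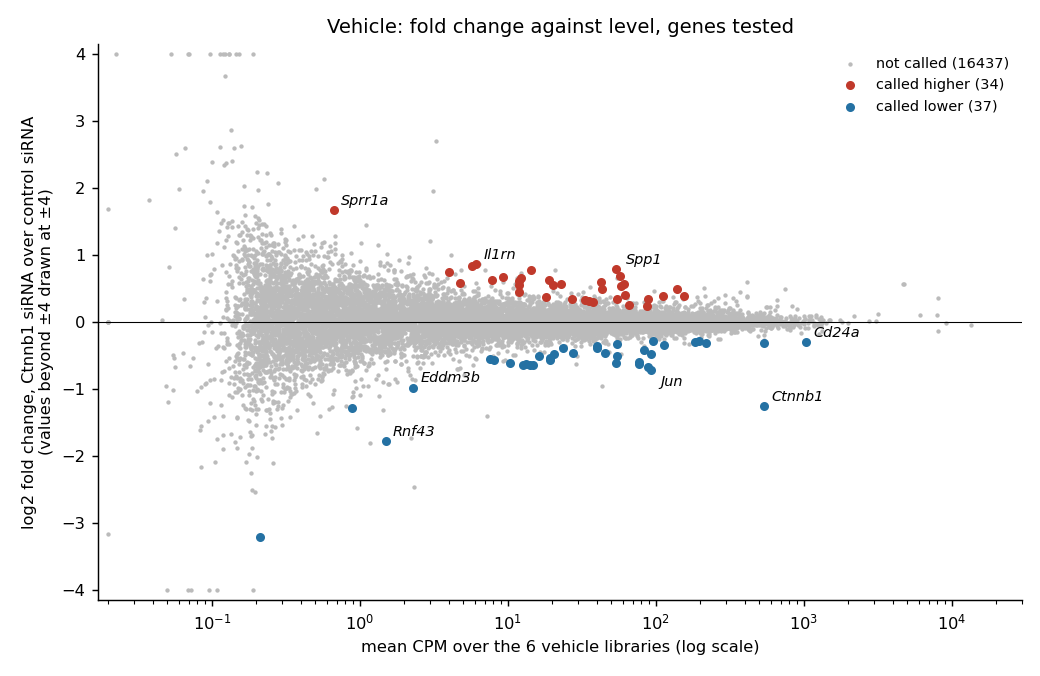
Log2 fold change of Ctnnb1 siRNA over control siRNA with vehicle (vertical axis, values beyond 4 in either direction drawn at the edge) against mean CPM over the 6 vehicle libraries (horizontal log axis), 1 point per tested gene; the 34 genes called higher are red and the 37 called lower are blue. Ctnnb1 at log2 -1.26 lies far below the other abundant genes, and Rnf43 at -1.78 and Sprr1a at 1.67 are called at low levels.

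The number of calls depended on single libraries and on the scale. Without knockdown replicate 1 it was 11 higher and 14 lower, without knockdown replicate 2 it was 18 higher and 19 lower, and without knockdown replicate 3 it was 6 higher and 12 lower. Without control replicate 1 it was 24 higher and 24 lower, without control replicate 2 it was 10 higher and 11 lower, and without control replicate 3 it was 11 higher and 11 lower. The dDAVP libraries entered the estimate of the spread, and without the dDAVP knockdown replicate 3, the library that stood farthest from its group, 98 genes were higher and 83 lower. The share of higher genes among calls was 47.9% on counts, but 25.4% on log2(TPM + 1), where 15 were higher and 44 lower and the median of all genes was -0.07. Over 20 alternatives, 16 genes kept their call in each, and 0 of the 71 changed direction in any.

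These 16 genes were Spp1, Nrp2, Arhgap40, Hgfac, Krt20 and Pla2g7 on the raised side and Ctnnb1, Jun, Arc, Parm1, Tln2, Ggt1, Nrp1, Vwa2, Nbl1 and Slc16a10 on the lowered side. Their largest adjusted p over the alternatives was 0.0477, for Parm1.

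**Figure D2:**
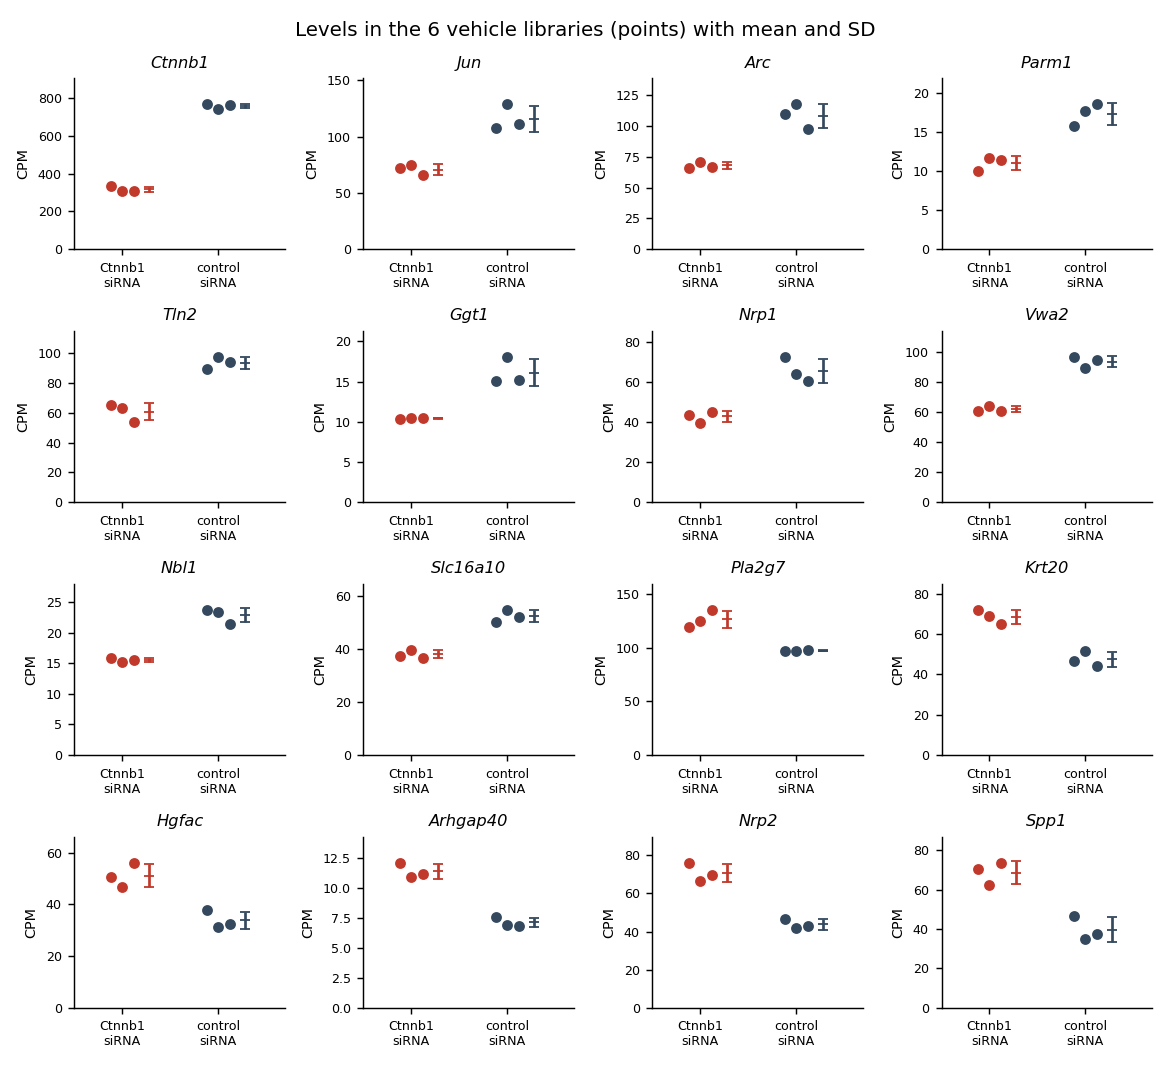
CPM (vertical axes, from 0) of the 16 genes whose call held in all 20 alternatives, in the 3 Ctnnb1-siRNA vehicle libraries (red) and the 3 control-siRNA vehicle libraries (dark blue); points are libraries, and the bar beside them is the mean with its SD. In every panel the 2 groups do not overlap, from Ctnnb1 with 306 to 334 CPM in knockdown libraries against 745 to 766 CPM in control libraries to Ggt1 with 10.4, 10.5 and 10.5 CPM in knockdown libraries against 15.1, 18.01 and 15.2 CPM in control libraries.

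The siRNA lowered its target in each library. Ctnnb1, at chromosome 9, 120933400 to 120960507 of GRCm38 (gene ID 12387), had 334, 306 and 309 CPM in knockdown libraries, against 766, 745 and 761 CPM in control libraries. This was a 2.39-fold fall (log2 -1.26, SE 0.047, adjusted p = 6.30e-10), and knockdown libraries kept 41.8% of the control mean. An exact two-sided permutation of its values gave p = 0.1, the smallest that 20 arrangements allow. The transcript stayed abundant after knockdown. Per transcript length, Ctnnb1 had 170 ± 10.6 TPM in knockdown libraries and 430.4 ± 15.9 TPM in control libraries (SD, n = 3 each), which placed it at rank 774 in knockdown cells and rank 310 in control cells among the genes of the table. Its close relative Jup (plakoglobin, or gamma-catenin), which can take the place of beta-catenin at junctions, had 88.5 ± 6.76 TPM in knockdown libraries and 93.8 ± 11.4 TPM in control libraries, and its log2 fold change in counts was -0.03 (SE 0.061, adjusted p = 0.973).

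Of the listed Wnt targets 1 was called lower, Rnf43, a transmembrane ubiquitin ligase that removes Frizzled receptors from the cell surface and acts as a feedback inhibitor of Wnt signalling. Rnf43 (chromosome 11, 87663087 to 87735539) had 1.15, 0.473 and 0.420 CPM in knockdown libraries, against 2.55, 2.18 and 2.23 CPM in control libraries, and the knockdown values lay below all control values with replicate 1 the highest of them. The fall was 3.43-fold (log2 -1.78, SE 0.30, adjusted p = 0.0136), the largest among called genes that averaged at least 1 CPM. It rested on 86 reads in the 3 knockdown libraries and 301 in the 3 control libraries. The call of Rnf43 was lost without knockdown replicate 2 or 3 or control replicate 1 or 2 or 3. The adjusted p was then up to 0.0916. Its paralog Znrf3, with the same role, had 18.02 ± 1.12 CPM in knockdown libraries and 19.8 ± 1.09 CPM in control libraries (SD, n = 3 each), and was not called (log2 -0.14, adjusted p = 0.890).

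The list of 34 Wnt and beta-catenin targets had 22 members in the table and 18 that passed the filter; Axin2, Lgr5, Nkd1, Notum, Sp5 and Dkk1 are among the members not analysed here. Of the 18, 1 was called lower and 3 higher, against 0.224% and 0.206% of all genes, and the median log2 fold change was -0.01 beside -0.0029 over all tested genes. The raised members Spp1, Plaur and Vegfa encode an adhesive matrix protein, a protease receptor and an endothelial growth factor, and 9 of the 18 members had positive and 9 negative fold changes. Of the 18, 6 lay wholly above the control values and 4 wholly below them, against 8.95% and 9.26% of all genes. DESeq2 called 4 of the 18 higher and 1 lower, beside 97 and 80 of all 16508 genes. Myc, Ccnd1, Sox9, Ephb2 and Ephb3, which encode growth regulators and guidance receptors under Wnt control in the intestine, were not called. Ccnd1 (cyclin D1) had 75.3, 79.1 and 75.3 CPM in knockdown libraries, against 62.0, 61.9 and 64.8 CPM in control libraries (log2 0.28, adjusted p = 0.715). Myc had 28.5, 29.9 and 31.4 CPM in knockdown libraries, against 31.9, 30.0 and 26.04 CPM in control libraries (log2 0.03, adjusted p = 0.985).

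The machinery above and beside beta-catenin did not move past the threshold. Of 28 tested genes of the destruction complex and of Wnt reception, edgeR and DESeq2 called 0, with unadjusted p under 0.05 for Amer1 (log2 -0.18, adjusted p = 0.439) and Fzd2 (log2 -0.29, adjusted p = 0.458), and the median log2 fold change was -0.06. Of 18 nuclear partners both tools called 0, with a median of -0.02 and an unadjusted p under 0.05 for Ldb1 alone (log2 -0.17, adjusted p = 0.422). Levels per transcript length ordered the TCF and LEF factors alike in both groups. Tcf7l2 had 17.1 ± 1.82 TPM in knockdown libraries and 17.7 ± 2.34 TPM in control libraries, and Tcf7l1 had 3.32 ± 0.627 TPM in knockdown libraries and 2.92 ± 0.270 TPM in control libraries (SD, n = 3 each). Tcf7 had 0.167 ± 0.0987 TPM in knockdown libraries and 0.200 ± 0.0800 TPM in control libraries, and Lef1 had 0.0467 ± 0.0208 TPM in knockdown libraries and 0.0833 ± 0.0586 TPM in control libraries. For each of these 4 factors the groups overlapped, and in control libraries Tcf7 and Lef1 overlapped each other.

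**Figure D3:**
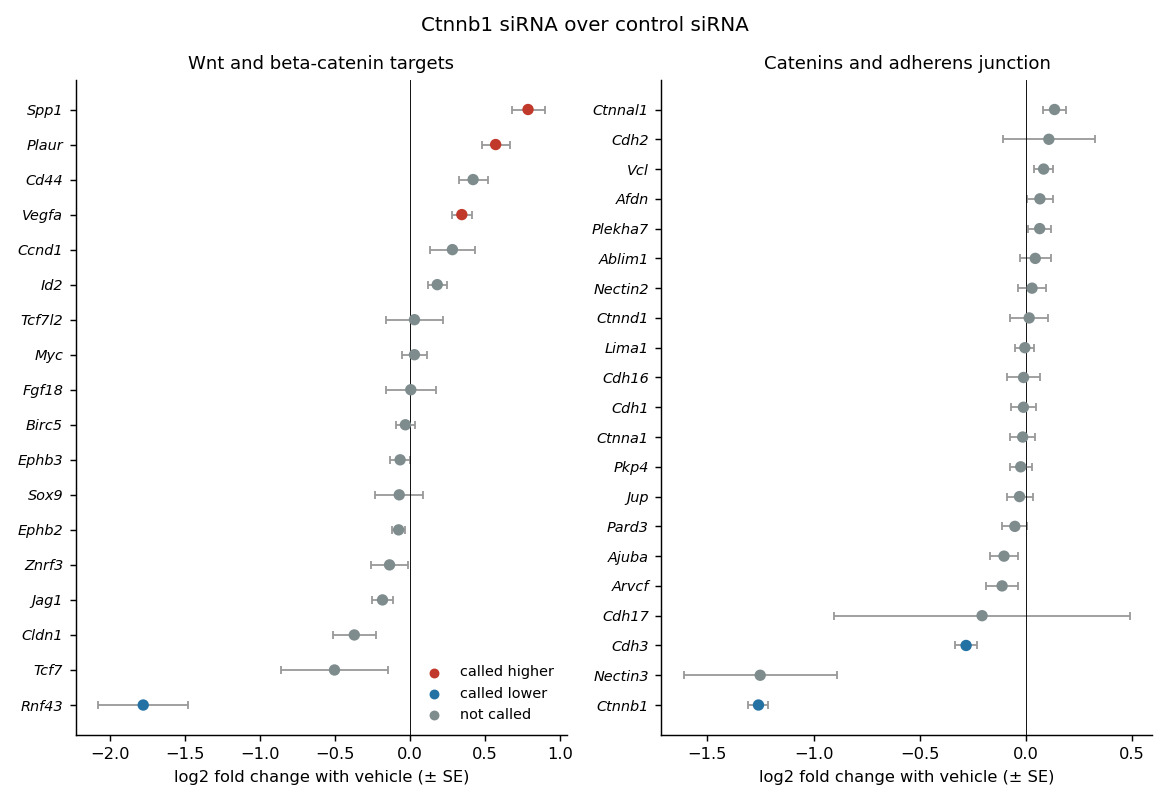
Log2 fold change of Ctnnb1 siRNA over control siRNA with vehicle (horizontal axes) with its SE (bars) for the tested members of the Wnt and beta-catenin target list (left) and of the catenin and adherens junction list with Ctnnb1 itself (right). Rnf43 at -1.78 lies far below zero and Spp1, Plaur and Vegfa above it, while on the right only Ctnnb1 at -1.26 and Cdh3 at -0.28 were called.

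The promoters of Rnf43 and Eddm3b, the called genes that fell most, apart from Ctnnb1, among those averaging at least 1 CPM, are shown because TCF and LEF factors bind a core sequence. That core, CTTTG followed by AA, AT, TA or TT, was searched here. The sequences are the 250 bases before the start in RefSeq's promoter table (GRCm38.p6), at chr11:87662837-87663086 on the plus strand and chr14:51114179-51114428 on the plus strand, with matches to the core on either strand in capitals.
Rnf43 promoter: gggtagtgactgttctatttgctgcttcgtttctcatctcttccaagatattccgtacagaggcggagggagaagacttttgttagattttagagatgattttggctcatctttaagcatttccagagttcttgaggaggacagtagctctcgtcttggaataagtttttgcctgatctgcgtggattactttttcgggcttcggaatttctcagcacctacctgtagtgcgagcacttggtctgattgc
Eddm3b promoter: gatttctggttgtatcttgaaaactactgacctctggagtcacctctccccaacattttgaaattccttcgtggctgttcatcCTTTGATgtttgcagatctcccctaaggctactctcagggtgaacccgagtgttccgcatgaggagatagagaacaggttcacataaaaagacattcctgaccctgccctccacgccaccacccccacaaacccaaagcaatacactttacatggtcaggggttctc
The Rnf43 window held no match, nor did the window at its other listed start, and the Eddm3b window held 1, beginning 167 bases before the start. In windows that ran from 250 bases before to 50 after a start, 16.9% of 32851 RefSeq promoters held the core and 11.99% of the promoters of tested genes did. Among called genes it was in 6 of 35 promoters of 28 raised genes (Adamts1, Fxyd3, Il1rn, Nrp2, Pla2g7 and Spp1) and in 5 of 43 promoters of 25 lowered genes (Eddm3b, Ggt1, Sept4 and Sorbs2).

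Among listed genes of the adherens junction, the transcript of P-cadherin fell and no other member passed the test. Of 20 tested genes of the list 1 was called lower and 0 higher, against 0.224% and 0.206% of all genes, and the median log2 fold change was -0.01. An unadjusted p under 0.05 was found for 3 of the 20, against 8.09% of all genes. Wholly above the control values lay 3 and wholly below them 3, against 8.95% and 9.26% of all genes. Nectin3, at a low level, had 62 reads in the knockdown libraries together and 151 in the control libraries. Its TPM did not overlap between the groups, and it was not called. Cdh3, which encodes P-cadherin, a classical cadherin that binds beta-catenin, had 169, 179.7 and 179 CPM in knockdown libraries, against 214, 213 and 214 CPM in control libraries, with no overlap and nearly equal control values (log2 -0.28, SE 0.052, adjusted p = 0.0234). Per transcript length Cdh3 had 85.0 ± 1.63 TPM in knockdown libraries and 109 ± 4.27 TPM in control libraries (SD, n = 3 each). Cdh1 (E-cadherin) had 235 ± 7.53 TPM in knockdown libraries and 250.1 ± 13.8 TPM in control libraries, with a log2 fold change in counts of -0.01 (adjusted p = 0.993). Alpha-catenin (Ctnna1) had 304 ± 16.03 TPM in knockdown libraries and 324.5 ± 8.40 TPM in control libraries (log2 -0.01, adjusted p = 0.988). Of 13 desmosome genes and 24 genes of tight junctions and polarity edgeR and DESeq2 called 0, with unadjusted p under 0.05 in edgeR for Pkp1 (0.00199), Krt19 (0.00314) and Perp (0.0426) in the first list and for Cldn3 (0.0155) in the second. The call of Cdh3 was lost without any 1 of the 6 vehicle libraries. The adjusted p was then up to 0.138.

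Further called genes outside that list are described by what their products are known to do. Tln2 (talin 2, which couples integrins to actin; chromosome 9, 67217085 to 67634045) had 64.9, 63.5 and 54.0 CPM in knockdown libraries, against 89.4, 97.3 and 94.1 CPM in control libraries, and fell 1.54-fold (log2 -0.62, SE 0.067, adjusted p = 0.000448). The neuropilins, co-receptors for semaphorins and for vascular endothelial growth factor, moved in opposite directions. Nrp1 (chromosome 8, 128358591 to 128505476) had 43.5, 39.6 and 45.1 CPM in knockdown libraries, against 72.3, 63.8 and 60.4 CPM in control libraries, a 1.53-fold fall (log2 -0.62, SE 0.073, adjusted p = 0.00103). Nrp2 (chromosome 1, 62703317 to 62818692) had 76.0, 66.7 and 69.9 CPM in knockdown libraries, against 46.8, 41.6 and 42.9 CPM in control libraries, a 1.62-fold rise (log2 0.69, SE 0.077, adjusted p = 0.000473). In both genes the groups were separated by a wide margin, and both calls held in the 20 alternatives.

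Arhgap40 had 12.1, 10.9 and 11.2 CPM in knockdown libraries, against 7.59, 6.95 and 6.86 CPM in control libraries (log2 0.67, SE 0.092, adjusted p = 0.00354). Vwa2, a secreted protein with von Willebrand factor A domains found at basement membranes, had 60.4, 64.0 and 60.9 CPM in knockdown libraries, against 96.3, 89.1 and 94.8 CPM in control libraries. It fell 1.51-fold with the second smallest adjusted p of the comparison, 0.000141. Parm1, a mucin-like membrane protein, had 10.0, 11.7 and 11.4 CPM in knockdown libraries, against 15.7, 17.7 and 18.5 CPM in control libraries (log2 -0.65, SE 0.093, adjusted p = 0.00507). Smaller falls were measured for Nedd9, a scaffold of focal adhesions (log2 -0.28), Sorbs2, an adaptor at actin-rich adhesions (log2 -0.35), and Rhou, a small GTPase first described as induced by Wnt-1 (log2 -0.33). Rhou had 48.5, 49.7 and 46.5 CPM in knockdown libraries, against 59.2, 60.6 and 62.2 CPM in control libraries (adjusted p = 0.0176). Cdh13, a cadherin held in the membrane by a lipid anchor and without a beta-catenin binding tail, rose 1.46-fold with 15.1, 13.4 and 14.2 CPM in knockdown libraries, against 10.3, 9.75 and 9.11 CPM in control libraries (adjusted p = 0.00920). Cd24a, a small surface sialoglycoprotein, was the most abundant called gene, with 905, 932 and 932 CPM in knockdown libraries, against 1131, 1144 and 1138 CPM in control libraries (log2 -0.30, SE 0.047, adjusted p = 0.00852). Each of the calls of Nedd9, Sorbs2, Rhou, Cdh13 and Cd24a was lost without any 1 of the 6 vehicle libraries, except that Nedd9, Cdh13 and Cd24a held without knockdown replicate 2 or control replicate 1 and Sorbs2 and Rhou held without control replicate 1. For Nedd9, Sorbs2 and Cdh13, the calls were also lost on log2(TPM + 1). Sorbs2 had the largest adjusted p among them, 0.148.

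Jun, Arc and Ier2, products of immediate early genes, fell together with Id1, while Nr4a1 rose. Jun, a subunit of the AP-1 transcription factor, had 71.9, 74.99 and 65.6 CPM in knockdown libraries, against 107, 129 and 111 CPM in control libraries, and its 3 knockdown values all lay below its lowest control value. It fell 1.63-fold (log2 -0.71, SE 0.068, adjusted p = 0.000157; chromosome 4, 95049036 to 95052222), with the smallest adjusted p after Ctnnb1 and Vwa2. Arc, an immediate early gene known from neurons, had 65.7, 71.0 and 67.1 CPM in knockdown libraries, against 109.5, 117 and 97.7 CPM in control libraries and fell 1.59-fold (log2 -0.67, SE 0.073, adjusted p = 0.000448). Id1, an inhibitor of basic helix-loop-helix factors and a target of BMP signalling, had 12.02, 11.7 and 11.2 CPM in knockdown libraries, against 18.8, 16.4 and 19.2 CPM in control libraries (log2 -0.65, SE 0.10, adjusted p = 0.00809). Ier2, a further immediate early gene, had 67.8, 74.9 and 71.3 CPM in knockdown libraries, against 91.9, 107 and 87.6 CPM in control libraries (log2 -0.42, SE 0.068, adjusted p = 0.0109). Nr4a1, an orphan nuclear receptor that is also induced rapidly by many stimuli, had 14.4, 13.1 and 13.6 CPM in knockdown libraries, against 10.7, 9.33 and 9.96 CPM in control libraries (log2 0.45, SE 0.073, adjusted p = 0.0109). Each of the calls of Id1, Ier2 and Nr4a1 was lost without any 1 of the 6 vehicle libraries, except that Id1 held without knockdown replicate 1 or 2 or control replicate 1 or 2, Ier2 held without knockdown replicate 2 or control replicate 1 or 3 and Nr4a1 held without knockdown replicate 2 or control replicate 1. For Nr4a1, the call was also lost on log2(TPM + 1). Nr4a1 then had the largest adjusted p, 0.115.

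Jun, Arc and Nr4a1 were the called members among 21 tested cAMP and CREB targets, 1 higher and 2 lower against 0.206% and 0.224% of all genes, in a list whose median log2 fold change was -0.01. DESeq2 called 1 of the 21 higher and 3 lower, beside 97 and 80 of all 16508 genes. Of the 21, 6 lay wholly below the control values and 2 wholly above them, against 9.26% and 8.95% of all genes. Fos, Fosb and Junb, partners of Jun in AP-1 named here after their values were seen, had no overlap between the groups and were not called. Fosb had 1.65 ± 0.260 CPM in knockdown libraries and 3.05 ± 1.12 CPM in control libraries (SD, n = 3 each; log2 -0.87, adjusted p = 0.158). Fos had 23.7, 22.8 and 26.4 CPM in knockdown libraries, against 31.1, 33.4 and 26.6 CPM in control libraries (log2 -0.32, adjusted p = 0.215). Junb had 248, 243 and 249.3 CPM in knockdown libraries, against 285, 309 and 287 CPM in control libraries (log2 -0.25, adjusted p = 0.190). Jun was also the 1 called member among 22 regulators of Aqp2 transcription, against 0.224% of all genes called lower. Of the 22, 18 had negative fold changes and 5 lay wholly below the control values, against 9.26% of all genes (median log2 -0.06).

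Spp1 (osteopontin, a secreted phosphoprotein that binds integrins; chromosome 5, 104435111 to 104441053) had 70.3, 62.3 and 73.6 CPM in knockdown libraries, against 46.8, 35.01 and 37.5 CPM in control libraries, with control replicate 1 nearest to the knockdown values, and rose 1.73-fold (log2 0.79, SE 0.11, adjusted p = 0.00507). Hgfac, the protease that activates the precursor of hepatocyte growth factor, had 50.6, 46.8 and 56.0 CPM in knockdown libraries, against 37.7, 31.2 and 32.3 CPM in control libraries (log2 0.60, SE 0.081, adjusted p = 0.00354). The 3 control values of Hgfac all lay below its lowest knockdown value. Plaur, the receptor of urokinase, had 26.8, 25.3 and 29.4 CPM in knockdown libraries, against 18.8, 17.6 and 18.4 CPM in control libraries (log2 0.57, SE 0.093, adjusted p = 0.0109). Il1rn, the antagonist of the interleukin-1 receptor, had 7.93, 6.78 and 8.79 CPM in knockdown libraries, against 3.92, 5.22 and 3.91 CPM in control libraries (log2 0.86, SE 0.17, adjusted p = 0.0347). Ereg (epiregulin), a ligand of the EGF receptor family, had 7.22, 7.10 and 7.51 CPM in knockdown libraries, against 3.86, 5.28 and 3.19 CPM in control libraries (log2 0.84, SE 0.16, adjusted p = 0.0273). In Il1rn and Ereg control replicate 2 was the highest control value, and still below the lowest knockdown value. Pla2g7, a secreted phospholipase that inactivates platelet-activating factor, had 119, 125 and 135 CPM in knockdown libraries, against 96.4, 97.0 and 97.3 CPM in control libraries (log2 0.38, SE 0.056, adjusted p = 0.00507).

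Of 15 tested secreted matrix and matricellular proteins 3 were called higher, namely Spp1, Adamts1 and Lgals3, and 0 lower, against 0.206% and 0.224% of all genes, while 9 of the 15 had negative fold changes and the median was -0.13. Adamts1, a secreted metalloprotease, had 98.7, 94.8 and 106 CPM in knockdown libraries, against 85.6, 77.4 and 72.9 CPM in control libraries (log2 0.34, SE 0.061, adjusted p = 0.0199). Lgals3 (galectin-3), a lectin that binds galactosides outside and inside the cell, had 70.8, 66.0 and 75.5 CPM in knockdown libraries, against 60.7, 50.9 and 48.0 CPM in control libraries (log2 0.41, SE 0.079, adjusted p = 0.0323). Of 22 genes of growth factor and MAPK feedback, Ereg was called higher and 0 were lower, against 0.206% and 0.224% of all genes. DESeq2 called 2 of the 22 higher and 0 lower, beside 97 and 80 of all 16508 genes. Of the 22, 18 had positive fold changes and 10 lay wholly above the control values, against 8.95% of all genes. The median was 0.15, beside -0.006 in the dDAVP libraries. Each of the calls of Plaur, Il1rn, Ereg, Adamts1 and Lgals3 was lost without any 1 of the 6 vehicle libraries, except that Plaur and Adamts1 held without knockdown replicate 2 or control replicate 1, Ereg held without control replicate 2 and Lgals3 held without control replicate 1. For Il1rn, Ereg, Adamts1 and Lgals3, the calls were also lost on log2(TPM + 1), and for Il1rn and Lgals3 without dDAVP control replicate 3. The largest adjusted p among them was 0.225, for Il1rn.

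The promoters of Plaur, Il1rn and Sprr1a are shown because they hold matches to the AP-1 motif in a set of raised genes. The motif TGANTCA, where N is any base and which reads the same on both strands, was chosen after the values had been seen. Binding of AP-1 was not measured. The windows are the 250 bases before a RefSeq start (GRCm38.p6) at chr7:24462233-24462482 on the plus strand, chr2:24336610-24336859 on the plus strand and chr3:92485882-92486131 on the minus strand, with the motif in capitals.
Plaur promoter: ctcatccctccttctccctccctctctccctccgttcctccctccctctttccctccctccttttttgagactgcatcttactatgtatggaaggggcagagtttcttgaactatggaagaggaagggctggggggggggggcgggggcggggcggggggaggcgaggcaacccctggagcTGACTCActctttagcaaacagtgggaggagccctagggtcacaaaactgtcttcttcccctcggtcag
Il1rn promoter: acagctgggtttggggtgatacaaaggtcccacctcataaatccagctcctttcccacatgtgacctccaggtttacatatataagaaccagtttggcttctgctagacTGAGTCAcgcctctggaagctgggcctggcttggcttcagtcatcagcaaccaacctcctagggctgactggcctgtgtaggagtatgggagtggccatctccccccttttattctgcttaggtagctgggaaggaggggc
Sprr1a promoter: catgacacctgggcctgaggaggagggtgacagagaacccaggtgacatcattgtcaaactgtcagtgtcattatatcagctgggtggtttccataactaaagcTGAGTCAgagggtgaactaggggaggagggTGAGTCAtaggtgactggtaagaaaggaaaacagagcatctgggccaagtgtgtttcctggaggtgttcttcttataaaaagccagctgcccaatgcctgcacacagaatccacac
The motif began 69 bases before the start in Plaur, 141 in Il1rn, and 146 and 116 in Sprr1a. The Plaur start used here lies inside the gene, which spans 24460937 to 24475970 on chromosome 7. It was in 6 of 35 promoters of raised genes, those of Arhgap40, Il1rn, Plaur, Rcan1, Sprr1a and Syt8, and in 1 of 43 promoters of lowered genes, that of St6gal1, beside 7.81% of all RefSeq promoters and 5.60% of those of tested genes. Sprr1a itself, a precursor of the cornified envelope of keratinocytes, had 1.20, 0.744 and 1.14 CPM in knockdown libraries, against 0.326, 0.179 and 0.434 CPM in control libraries, which is 131 reads in the knockdown libraries together and 42 in the control libraries (log2 1.67, SE 0.33, adjusted p = 0.0347).

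Among genes of the hypoxia response and of glycolysis, Egln3, Hk2, P4ha1 and Vegfa rose. Of 31 tested, 4 were called higher and 0 lower, against 0.206% of all genes. DESeq2 called 10 of them higher and 0 lower, beside 97 and 80 of all 16508 genes. Of the 31, 30 had positive fold changes, 12 lay wholly above the control values against 8.95% of all genes, and the median log2 fold change was 0.17. Egln3, a prolyl hydroxylase that marks hypoxia-inducible factor for degradation and is itself induced by it, had 19.1, 19.4 and 15.9 CPM in knockdown libraries, against 8.91, 12.6 and 10.4 CPM in control libraries (log2 0.78, SE 0.14, adjusted p = 0.0261). Hk2 (hexokinase 2), which starts glycolysis, had 68.8, 74.1 and 74.0 CPM in knockdown libraries, against 52.4, 47.1 and 47.1 CPM in control libraries (log2 0.57, SE 0.088, adjusted p = 0.00867). P4ha1, a subunit of collagen prolyl 4-hydroxylase, had 169, 175 and 183 CPM in knockdown libraries, against 133, 136 and 134 CPM in control libraries (log2 0.39, SE 0.071, adjusted p = 0.0230). Vegfa, the endothelial growth factor that is also on the Wnt target list, had 29.5, 30.2 and 31.5 CPM in knockdown libraries, against 24.4, 22.9 and 24.5 CPM in control libraries (log2 0.35, SE 0.068, adjusted p = 0.0367). In all 4 genes the knockdown values were above every control value. Pfkp, Bnip3 and Ndrg1, named after their values were seen, came next, with adjusted p-values of 0.0577, 0.0702 and 0.0810.

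Library by library, the median over the 31 members of log2 CPM relative to the control mean (with 0.1 CPM added) was 0.09, 0.15 and 0.19 in the knockdown libraries and 0.05, -0.03 and -0.05 in the control libraries. Knockdown replicate 1 was thus the lowest of its group and control replicate 1 the highest of its own. Summed over the 31 genes, knockdown libraries had 5067, 5291 and 5414 CPM and control libraries 5150, 4744 and 4650 CPM. These sums overlapped between the groups. On log2(TPM + 1) the median of the list was 0.05. Each of the calls of Egln3, Hk2, P4ha1 and Vegfa was lost without any 1 of the 6 vehicle libraries, except that Egln3 held without control replicate 2 and Hk2 held without knockdown replicate 1 or 2 or control replicate 1. For Egln3, Hk2, P4ha1 and Vegfa, the calls were also lost on log2(TPM + 1), and for Vegfa without dDAVP knockdown replicate 1. Vegfa then had the largest adjusted p, 0.308. Pgam1-ps2, listed as a pseudogene of the glycolytic enzyme gene Pgam1, was called higher (log2 0.25), and reads of the 2 near-identical copies may not be told apart.

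Tgfb3, Id1 and Nbl1, genes of the TGF-beta and BMP pathways, fell. Of 16 tested members of their list 2 were called lower and 0 higher, against 0.224% and 0.206% of all genes, with a median of -0.11. DESeq2 called 5 of the 16 lower and 0 higher, beside 80 and 97 of all 16508 genes. Library by library the median relative to the control mean was -0.18, -0.13 and -0.16 in knockdown libraries. In control libraries it was -0.12, 0.05 and 0.01, so that control replicate 1 lay close to knockdown replicate 2. Tgfb3, a TGF-beta ligand, had 9.09, 8.05 and 7.53 CPM in knockdown libraries, against 11.9, 13.7 and 12.2 CPM in control libraries (log2 -0.61, SE 0.11, adjusted p = 0.0230), and the other called member was Id1. Nbl1, a secreted BMP antagonist of the DAN family that was not on the list, had 15.8, 15.1 and 15.6 CPM in knockdown libraries, against 23.7, 23.4 and 21.5 CPM in control libraries, and the 3 knockdown values lay within 1 CPM of each other (log2 -0.56, SE 0.071, adjusted p = 0.00180). Of the 16 listed members, 6 lay wholly below the control values and 1 wholly above them, against 9.26% and 8.95% of all genes. Tgfb2 and Id3, named after their values were seen, had no overlap between the groups and were not called (log2 -0.55, adjusted p = 0.140, and log2 -0.69, adjusted p = 0.134). The call of Tgfb3 was lost without any 1 of the 6 vehicle libraries. The adjusted p was then up to 0.143.

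Among kinases, phosphatases and receptors, Prkg2, the membrane-bound cGMP-dependent protein kinase, had 22.5, 21.9 and 25.2 CPM in knockdown libraries, against 14.5, 15.1 and 15.4 CPM in control libraries and rose 1.55-fold (log2 0.63, SE 0.094, adjusted p = 0.00565). Ngfr, the p75 neurotrophin receptor, had 15.2, 13.8 and 15.8 CPM in knockdown libraries, against 10.2, 9.96 and 8.27 CPM in control libraries (log2 0.65, SE 0.12, adjusted p = 0.0205). Dusp10, a phosphatase that inactivates the stress kinases JNK and p38, had 5.98, 5.52 and 5.64 CPM in knockdown libraries, against 3.47, 3.76 and 4.25 CPM in control libraries (log2 0.58, SE 0.11, adjusted p = 0.0257). These 3 genes rose, with the groups apart, while both insulin receptor substrates fell. Irs1 had 13.2, 13.8 and 13.3 CPM in knockdown libraries, against 19.1, 18.7 and 19.3 CPM in control libraries (log2 -0.50, SE 0.10, adjusted p = 0.0471). Irs2 had 35.4, 32.9 and 36.5 CPM in knockdown libraries, against 43.4, 45.5 and 45.8 CPM in control libraries (log2 -0.36, SE 0.066, adjusted p = 0.0230). Nuak1, a kinase related to AMP-activated kinase, had 16.8, 18.2 and 16.6 CPM in knockdown libraries, against 25.4, 23.0 and 23.4 CPM in control libraries (log2 -0.48). Rcan1, an inhibitor of calcineurin, had 36.7, 36.0 and 37.5 CPM in knockdown libraries, against 30.6, 29.5 and 27.9 CPM in control libraries (log2 0.33). Bmf, a pro-apoptotic member of the BCL2 family, had 161, 167 and 168 CPM in knockdown libraries, against 199.9, 203 and 209 CPM in control libraries (log2 -0.30). Mycl, a MYC family factor, had 6.51, 6.38 and 6.67 CPM in knockdown libraries, against 9.28, 9.84 and 9.72 CPM in control libraries (log2 -0.56). Without any 1 of the 6 vehicle libraries these 9 calls were lost, except that Prkg2 held without knockdown replicate 1 or 2 or control replicate 1 or 2 or 3, Ngfr held without knockdown replicate 2 or control replicate 1, Dusp10 held without control replicate 3, Nuak1 held without knockdown replicate 2 and Rcan1 and Bmf held without control replicate 1. For Ngfr, Dusp10, Irs1, Irs2, Nuak1, Rcan1 and Mycl, the calls were also lost on log2(TPM + 1), for Irs1 with the size factors of DESeq2, for Irs1 without dDAVP knockdown replicate 1, and for Irs1 and Mycl without dDAVP control replicate 3. The largest adjusted p among them was 0.225, for Irs1.

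Ggt1, the surface enzyme that starts the breakdown of glutathione, had 10.4, 10.5 and 10.5 CPM in knockdown libraries, against 15.1, 18.01 and 15.2 CPM in control libraries, with 3 nearly equal knockdown values (log2 -0.62, SE 0.090, adjusted p = 0.00507). Slc16a10, a transporter of aromatic amino acids, had 37.6, 39.7 and 36.9 CPM in knockdown libraries, against 50.1, 54.8 and 52.4 CPM in control libraries (log2 -0.46, SE 0.056, adjusted p = 0.00111). Nqo1, a quinone reductase induced by NRF2, had 162, 149.7 and 173 CPM in knockdown libraries, against 123, 108 and 115 CPM in control libraries (log2 0.49, SE 0.071, adjusted p = 0.00513). It was the 1 called gene of 19 in the NRF2 and glutathione list, against 0.206% of all genes called higher. The median of that list was 0.05, and DESeq2 called 2 of the 19 higher, beside 97 of all 16508 genes. Krt20, a keratin of gut and urinary tract epithelium, had 71.8, 69.1 and 64.8 CPM in knockdown libraries, against 46.7, 51.5 and 44.0 CPM in control libraries (log2 0.53, SE 0.074, adjusted p = 0.00354). Fxyd3, a regulator of the sodium pump, had 8.62, 10.1 and 9.96 CPM in knockdown libraries, against 6.69, 5.75 and 6.03 CPM in control libraries (log2 0.63, SE 0.12, adjusted p = 0.0367).

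The sialyltransferases St3gal1 and St6gal1 went in opposite directions, and the groups overlapped in neither. St3gal1 had 25.4, 23.9 and 23.2 CPM in knockdown libraries, against 16.6, 15.7 and 16.9 CPM in control libraries (log2 0.56, SE 0.10, adjusted p = 0.0237). St6gal1 had 36.5, 33.8 and 34.6 CPM in knockdown libraries, against 45.3, 44.4 and 47.2 CPM in control libraries (log2 -0.39, SE 0.066, adjusted p = 0.0136). Hs3st1, which adds a sulfate to heparan sulfate, had 15.2, 15.2 and 13.0 CPM in knockdown libraries, against 9.20, 10.0 and 9.07 CPM in control libraries (log2 0.62, SE 0.12, adjusted p = 0.0300). Bicc1, an RNA-binding protein whose loss causes cystic kidneys in mice, had 486, 490.2 and 459 CPM in knockdown libraries, against 566, 600.0 and 622 CPM in control libraries (log2 -0.32, SE 0.053, adjusted p = 0.0136). Eddm3b had 1.42, 1.35 and 1.84 CPM in knockdown libraries, against 3.43, 3.07 and 2.63 CPM in control libraries (log2 -0.98, SE 0.20, adjusted p = 0.0406). Fam171a1 had 10.4, 10.7 and 8.72 CPM in knockdown libraries, against 15.2, 15.7 and 15.6 CPM in control libraries (log2 -0.64, SE 0.12, adjusted p = 0.0244). Reads were few for the large fall of Pcdhb20, with 66 in the knockdown libraries together and 161 in the control libraries. Pcdhb20, 1 of a cluster of similar protocadherin genes, had 0.514, 0.451 and 0.583 CPM in knockdown libraries, against 1.22, 1.28 and 1.26 CPM in control libraries. Without any 1 of the 6 vehicle libraries the calls of Nqo1, Fxyd3, St3gal1, St6gal1, Hs3st1, Bicc1, Eddm3b, Fam171a1 and Pcdhb20 were lost, except that Nqo1 held without knockdown replicate 1 or 2 or control replicate 1 or 3, St6gal1 held without knockdown replicate 1 and Bicc1 held without control replicate 1. For St3gal1, Hs3st1, Bicc1 and Fam171a1, the calls were also lost on log2(TPM + 1), for Eddm3b and Pcdhb20 without dDAVP knockdown replicate 1, for Eddm3b without dDAVP control replicate 1, and for Fxyd3, Eddm3b and Pcdhb20 without dDAVP control replicate 3. The largest adjusted p was 0.248, for St3gal1.

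A further 7 raised and 7 lowered genes were called. They were on the raised side Oit1, Adamtsl5, Ehd4, Syt8, Coq10b, Bst1 and Gm4610, with log2 fold changes of 0.26 for Bst1 to 0.74 for Gm4610. On the lowered side they were Rab11fip4, Tmem230, Pou6f1, Mfap3l, Nrep, Sept4 and 1810019D21Rik, with log2 fold changes of -0.55 for 1810019D21Rik to -0.31 for Rab11fip4. With Sprr1a and Pgam1-ps2 they make 16 calls. Without any 1 of the 6 vehicle libraries these 16 calls were lost, except that Sprr1a and Sept4 held without knockdown replicate 2, Oit1, Gm4610 and Rab11fip4 held without knockdown replicate 2 or control replicate 1, Ehd4 held without knockdown replicate 1 or 2 or control replicate 1 or 2 or 3, Bst1 held without knockdown replicate 1, Tmem230, Pou6f1 and Nrep held without control replicate 1 and Mfap3l held without knockdown replicate 1 or 2 or control replicate 1. For Sprr1a, Pgam1-ps2, Oit1, Adamtsl5, Ehd4, Syt8, Coq10b, Bst1, Rab11fip4, Tmem230, Pou6f1 and Mfap3l, the calls were also lost on log2(TPM + 1), for Adamtsl5 and Bst1 with no filter on low counts, for 1810019D21Rik with upper-quartile scaling, for Sprr1a, Adamtsl5, Syt8, Coq10b, Bst1, Tmem230 and 1810019D21Rik without dDAVP knockdown replicate 1, for Adamtsl5 and Bst1 without dDAVP control replicate 1, and for Sprr1a, Pgam1-ps2, Adamtsl5, Coq10b, Bst1, Tmem230 and 1810019D21Rik without dDAVP control replicate 3. The largest adjusted p was 0.318, for Bst1.

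In some lists nearly all fold changes had one sign although edgeR called 0 members. Of 24 replication-dependent histone genes all 24 had positive fold changes and 14 lay wholly above the control values, against 8.95% of all genes, with a median log2 of 0.18. The member with the smallest p was H4c14, with 113 ± 7.58 CPM in knockdown libraries and 82.0 ± 6.27 CPM in control libraries (SD, n = 3 each, adjusted p = 0.0504). An unadjusted p under 0.05 was found for 12 of the 24, against 8.09% of all genes. DESeq2 called 1 higher, beside 97 of all 16508 genes. Summed over the 24 genes, knockdown libraries had 8563, 8059 and 8596 CPM and control libraries 7525, 7040 and 6873 CPM, with no overlap; reads of histone copies may be shared. These transcripts lack a poly(A) tail, and small structural RNAs, which lack one too, had a median log2 of 0.48 over 15 genes, 13 of them positive; their part in the histone values was not tested. The S phase and the G2 and M phase lists, with 33 genes each, had medians of -0.01 and 0.02 and 0 called members each in edgeR and in DESeq2, with an unadjusted p under 0.05 for 0 and 1 members, the 1 being Anln.

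Of 32 interferon response genes 28 had negative fold changes and 10 lay wholly below the control values, against 9.26% of all genes, with a median log2 of -0.21. An unadjusted p under 0.05 was found for 4 of them, against 8.09% of all genes, and DESeq2 called 0. Cmpk2 had 2.57, 3.90 and 3.87 CPM in knockdown libraries, against 5.47, 4.95 and 6.401 CPM in control libraries (log2 -0.70, adjusted p = 0.222). By library the median of the list was -0.23, -0.23 and -0.05 in the knockdown libraries and 0.06, -0.06 and 0.02 in the control libraries, so that knockdown replicate 3 lay close to the control libraries. Of 19 YAP and TEAD targets 17 had negative fold changes and 9 lay wholly below the control values, against 9.26% of all genes, with a median of -0.10. Unadjusted p was under 0.05 for 7 of them, against 8.09% of all genes, with the smallest for Tgfb2 (0.00133) and Nuak2 (0.00314). DESeq2 called 1 lower, beside 80 of all 16508 genes. Their median by library was -0.07, -0.11 and -0.15 in the knockdown libraries and -0.07, 0.04 and 0.01 in the control libraries. Control replicate 1 thus lay level with knockdown replicate 1. Of 19 NF-kappaB targets and chemokines 15 had positive fold changes and 7 lay wholly above the control values, against 8.95% of all genes, with a median of 0.10. An unadjusted p under 0.05 was found for 6 of them, against 8.09% of all genes. DESeq2 called 4 higher, beside 97 of all 16508 genes. The neutrophil-attracting chemokine Cxcl5 had 17.1, 15.6 and 13.3 CPM in knockdown libraries, against 9.81, 9.18 and 8.79 CPM in control libraries (log2 0.73, adjusted p = 0.0549).

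Basement membrane and integrin genes had a median of -0.02 over 28 members, and edgeR called 0. An unadjusted p under 0.05 was found for 7 of the 28, against 8.09% of all genes. DESeq2 called 3 lower, beside 80 of all 16508 genes. Col4a2, a chain of collagen IV, had 72.8, 71.8 and 64.3 CPM in knockdown libraries, against 95.5, 95.4 and 93.1 CPM in control libraries (log2 -0.44, adjusted p = 0.0623). The p53 targets had a median of 0.09 over 22 members, with 0 called by edgeR and 1 called higher by DESeq2. Sterol and fatty acid synthesis genes had a median of 0.06 over 30 members, likewise with 0 called by edgeR and 1 called higher by DESeq2. Cytosolic ribosomal proteins had 0.03 over 40 members, nuclear genes of oxidative phosphorylation 0.00 over 28 and the unfolded protein and ATF4 response 0.01 over 26, with 0 called by either tool. Renal ion transport genes had a median of 0.03 over 20 members, with 0 called by edgeR and 1 called higher by DESeq2. Over all 16508 genes DESeq2 called 97 higher.

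**Figure D4:**
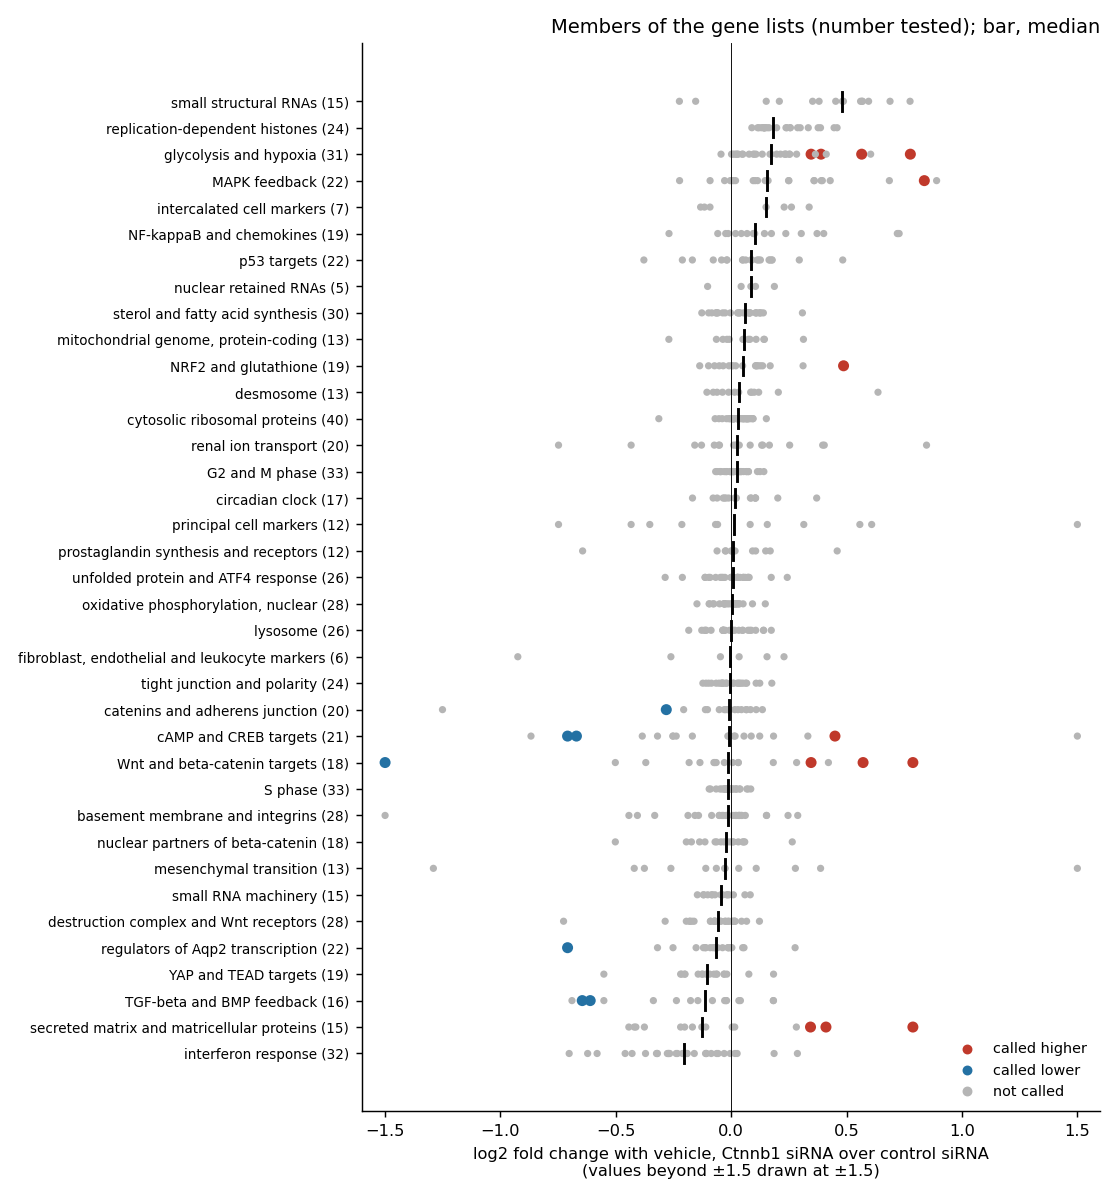
Log2 fold change of Ctnnb1 siRNA over control siRNA with vehicle (horizontal axis, values beyond 1.5 in either direction drawn at 1.5) for every tested member of the gene lists drawn (rows, with the number tested). The list of other nephron cell markers, with few tested members, is not drawn. Red points were called higher, blue points lower, grey points not called, and black bars are medians. The histone and glycolysis medians, 0.18 and 0.17, lie right of zero and the interferon median, -0.21, left of it, and the small structural RNAs at 0.48 lie farthest right.

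The same siRNA contrast was measured in the 6 dDAVP libraries, which share no library with the vehicle groups. There 20 genes were called higher (0.121%) and 24 lower (0.145%), together 0.267%. Of the 71 genes called with vehicle, 70 had a fold change of the same sign with dDAVP, beside 56.6% of all tested genes, and 26 were also called there, which is 36.6% of the calls with vehicle and 59.1% of the calls with dDAVP. For the 34 raised genes the median log2 fold change was 0.38 with dDAVP and 0.55 with vehicle, and for the 37 lowered genes it was -0.39 with dDAVP and -0.53 with vehicle. The genes had been chosen by their adjusted p with vehicle, and 60 of the 71 had a fold change smaller in size with dDAVP. The log2 fold change of Ctnnb1 was -1.24 with dDAVP and -1.26 with vehicle. That of Rnf43 was -1.68 with dDAVP and -1.78 with vehicle, that of Jun -0.62 with dDAVP and -0.71 with vehicle, and that of Arc -0.69 with dDAVP and -0.67 with vehicle. Nrp1 had -0.50 with dDAVP and -0.62 with vehicle, and Nrp2 had 0.44 with dDAVP and 0.69 with vehicle.

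Nr4a1 was the gene of opposite sign, with log2 -0.11 with dDAVP (adjusted p = 0.578) and 0.45 with vehicle. The test of the difference itself gave an unadjusted p of 5.24e-05 and an adjusted p of 0.865 for it in edgeR. Over all genes edgeR called 0 differences between the siRNA effect with dDAVP and with vehicle; 829 genes, or 5.02% of those tested, had an unadjusted p under 0.05, and DESeq2 called 1, Nr4a1. The interferon list had a median of -0.21 with vehicle and 0.07 with dDAVP. That of the growth factor and MAPK feedback list was 0.15 with vehicle and -0.006 with dDAVP. The histone list had 0.18 with vehicle and 0.14 with dDAVP, and the hypoxia and glycolysis list had 0.17 with each. The differences between these medians were not tested.

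**Figure D5:**
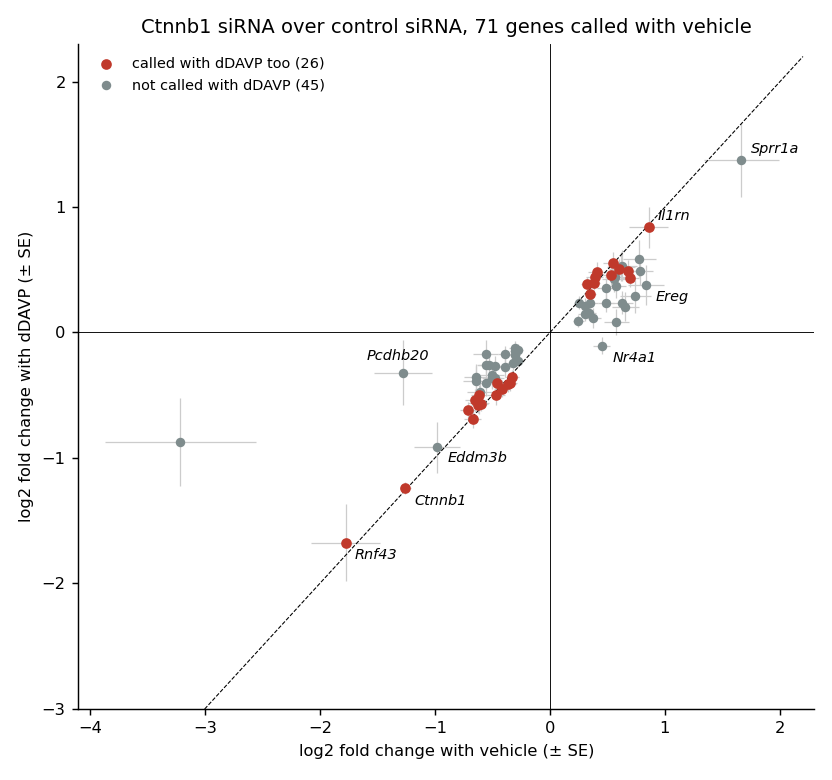
Log2 fold change of Ctnnb1 siRNA over control siRNA in the dDAVP libraries (vertical axis) against that in the vehicle libraries (horizontal axis), each with its SE, for the 71 genes called with vehicle; red points, the 26 also called with dDAVP; the dashed line marks equal values. Points other than Nr4a1 lie in the quadrants of equal sign, most of them between the dashed line and zero.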

How the data were processed

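Total RNA of mouse mpkCCDc11 cells was sequenced in 12 libraries after depletion of ribosomal RNA with a stranded kit, per the labels' protocols. The authors deposited a gene table with raw read counts and TPM values (scaled by transcript length and to an equal total) for each library, per the file headers. The submitters' processing notes name FastQC, Trimmomatic, HISAT2, StringTie and DESeq2 and the build GRCm38 (mm10), with no versions. Use of the strand in counting is not given in the sources used here, so antisense and overlapping genes are uncertain, as are near-identical copies such as histones. All per-sample columns were used (0 were left out).

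The counts as deposited were tested in R 4.3.3 with edgeR 4.0.16 (robust quasi-likelihood test, TMM scaling, filterByExpr) over all 12 libraries, with 1 coefficient per group. All 4 groups thus share 1 estimate of the spread. Benjamini-Hochberg adjustment ran over 16508 genes, with a threshold of 0.05. The SE of a log2 fold change was its size divided by the square root of F. CPM were scaled by TMM. Alternatives were DESeq2 1.42.0, 2 other scalings, no filter on low counts, a stricter one, the 6 vehicle libraries alone, the replicate number as a block, limma 3.58.1 on log2(TPM + 1) with a pseudocount of 1, and each library left out in turn. The procedure was tested on simulated data.

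The genes described and the 38 gene lists were chosen with earlier results of these data known. Genes were named by a rule, namely Ctnnb1, the 12 raised and 12 lowered called genes of largest fold change that averaged at least 1 CPM without overlap, up to 4 called members per list and up to 2 of smallest p in a list with none. 1 called gene is not reported here. Other genes, and the AP-1 motif, were chosen after their values were seen. Of the list entries, 25 were matched through RefSeq synonyms. Promoters are from RefSeq (GRCm38.p6). Same-numbered libraries of the 2 vehicle groups did not deviate together (r = 0.0034, -0.0375 and -0.0818 across genes), so the numbers were not taken to pair them.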

Additional observations from a re-analysis of the deposited data

How the results depend on the processing

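None of the 71 calls reversed in any alternative. DESeq2 called 97 genes higher and 80 lower (1921 genes had no adjusted p) and 1 difference between dDAVP and vehicle, and the fit of the 6 vehicle libraries alone called 150 higher and 105 lower. Both lists held the 34 and 37 genes called in all 12 libraries. On log2(TPM + 1), 15 genes were higher and 44 lower, 11 and 24 of them shared, and 91.5% of calls had the same sign with dDAVP. With each library left out in turn, the calls ranged over 6 to 98 higher and 11 to 83 lower genes, and the share of equal sign with dDAVP over 94.5% to 100%; at an adjusted p under 0.01 that share was 100%. With the replicate number as a block, 24 genes were higher and 29 lower, 22 and 29 of them shared; genes called without the block and not with it included Egln3, Vegfa, Cdh3, Il1rn, Lgals3, Dusp10, Irs1, Fxyd3, Hs3st1, Fam171a1, Eddm3b and Pcdhb20. The numbers share no pairing in the labels, and r of same-numbered deviations was 0.0034, -0.0375 and -0.0818. Other scalings of the counts and no filter gave 34 to 36 higher and 36 to 38 lower genes, and a stricter filter 44 and 40. The cause of these changes was not tested. As for depth, 3 reads amounted to 0.0676 to 0.0735 CPM in the knockdown libraries and 0.0612 to 0.0895 CPM in the control libraries.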
